A study of Aedes aegypti with 19 samples.

Results

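The genes described here are the protein-coding genes of *Aedes aegypti* with very long introns. They were chosen by 3 annotated properties (the protein-coding biotype, a name that is an AAEL identifier, and a gene length that exceeds the summed exon length by at least 300000 bases) and were also selected on 1 measured value, a mean of at least 50 gene reads over the 19 ovary libraries. The rule took 521 of 19381 genes, or 2.69%, and 521 of 14677 protein-coding genes. The read limit removed none of them: the lowest means were 122.3 reads for AAEL012496 and 122.4 reads for AAEL006442. Another 25 protein-coding genes of the same length carry a symbol in place of an identifier and were kept apart. Just inside the length limit were AAEL005463, with 300510 bases of intron, and AAEL001532, with 300828 bases, and just outside it were AAEL027346, with 299501 bases, and AAEL002932, with 299259 bases.

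The ovaries came from mosquitoes of Poza Rica, Mexico, that were 4 to 7 days old when fed. Blood-fed (BF) females received a single meal of warmed sheep blood, sugar-fed (SF) females received a sugar meal, and both were kept on 10% sucrose. Pools of ovaries were taken 3, 10 or 20 days post blood meal (PBM), and unlaid eggs were removed by hand before collection. The 6 groups were BF day 3 (4 libraries, replicates 1 to 4), and BF day 10, BF day 20, SF day 3, SF day 10 and SF day 20 (3 libraries each, replicates 1, 2 and 4), which the study describes as biological replicates.

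An intron is transcribed with the rest of its gene and cut out by the spliceosome, so intron reads come mainly from unspliced or partly spliced RNA, while reads that cross an exon-exon junction come from spliced RNA. These libraries were made from total RNA depleted of ribosomal RNA, without selection of poly(A) tails, so unspliced RNA was kept. RNA polymerase needs far longer to cross a very long intron than to cross the exons around it, and in *Drosophila* such introns are common in genes that regulate development and neural function. In the mosquito ovary, each follicle holds an oocyte and nurse cells inside an epithelium of follicle cells, and a blood meal starts yolk uptake, follicle growth and formation of the eggshell. The sources used here pair no AAEL identifier of the 521 genes with a protein name, so no role is given to a single gene.

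Gene reads, in read pairs, summed to 34651820 to 56274885 per library. In BF day 3 libraries, introns took 9.11% to 13.2% of all gene reads and 6.98% to 8.48% of mapped pairs lay outside genes, against 3.95% to 6.15% and 4.55% to 6.19% in the other 15 libraries. Replicate 3 of BF day 3 had the lowest values of its group in both. The share outside genes moved with the intron reads, and its part in the results below was not tested. Of the ovary markers named in the files, inx4, an innexin of the germ line in *Drosophila*, had 251 to 293 CPM of exon reads in BF day 3 libraries and 298 to 346 CPM in SF day 3 libraries. The vitelline membrane gene 15a-1, made by follicle cells, had 0.271 to 3.46 CPM and 0.0197 to 0.163 CPM in the same groups. Markers of other cells were low: Act-4, a muscle actin, had 1.85 to 3.79 CPM in BF and 1.35 to 1.64 CPM in SF ovaries on day 3, and 7 prophenoloxidase genes of haemocytes summed to 3.87 to 5.19 CPM and 4.78 to 7.87 CPM. The part of cell composition was not tested, and in pooled ovaries fewer cells of a type and less RNA per cell cannot be told apart.

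The 521 genes were long in every part. They had a median of 440273 bases of intron (range 300510 to 1419591), 6246 bases of exon (1145 to 34208), 15 exons (2 to 106) and 3 annotated transcripts (1 to 50). At least 500000 bases of intron were found in 204 of them and at least 1000000 bases in 11. Protein-coding genes with 10 to 100 kb of intron had a median of 2702 bases of exon and 6 exons. Of the 521 genes, 131 lay on chromosome 1, 224 on chromosome 2, 165 on chromosome 3 and 1 on an unplaced scaffold, which is 4.09%, 4.09% and 3.32% of the protein-coding genes of the 3 chromosomes. Other annotated genes lay wholly inside 350 of them, with a median of 1 and at most 16 per gene. Per kb of exon, their exon reads had a median of 2.30 CPM (reads per 1000000 gene reads of the library), against 5.53 CPM in genes with 100 to 300 kb of intron, 19.5 CPM with 10 to 100 kb and 19.2 CPM under 10 kb. Their introns covered 259 Mb and their exons 3.58 Mb, and over all libraries a median of 51.6% of a gene's reads fell in its introns (5.002% to 99.7%).

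On day 3 the intron reads of the 521 genes were about 3 times as many in BF as in SF ovaries, while their exon reads summed to nearly the same level. Summed intron reads were 37626, 33653, 24372 and 37032 CPM in BF day 3 replicates 1 to 4, and 9884, 9783 and 13489 CPM in SF day 3 replicates 1, 2 and 4. All BF values lay above all SF values, with replicate 3 the lowest of the BF libraries. Summed exon reads were 37024, 38878, 38311 and 36592 CPM in the same BF libraries, against 35742, 38236 and 34698 CPM in the SF libraries, and these ranges overlapped. The part of these that crossed an exon-exon junction overlapped too, at 9650, 9530, 10431 and 9224 CPM in BF and 10071, 10902 and 9569 CPM in SF libraries. Introns took 38.9% to 50.4% of the genes' reads in BF day 3 ovaries and 20.4% to 27.99% in SF day 3 ovaries. The 521 genes held 26.8% to 28.6% of the intron reads of all genes in BF day 3 libraries, against 22.1% to 23.6% in SF day 3 libraries. They held 4.21% to 4.43% and 3.68% to 4.00% of all exon reads in these groups.

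On later days the difference was smaller. Summed intron reads were 10595, 14300 and 13577 CPM in BF day 10 libraries (replicates 1, 2 and 4) and 8580, 9658 and 11891 CPM in SF day 10 libraries, and these ranges overlapped. On day 20 they were 10768, 14181 and 12550 CPM in BF libraries, all above the 8515, 8472 and 9556 CPM of SF libraries.

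**Figure D1:**
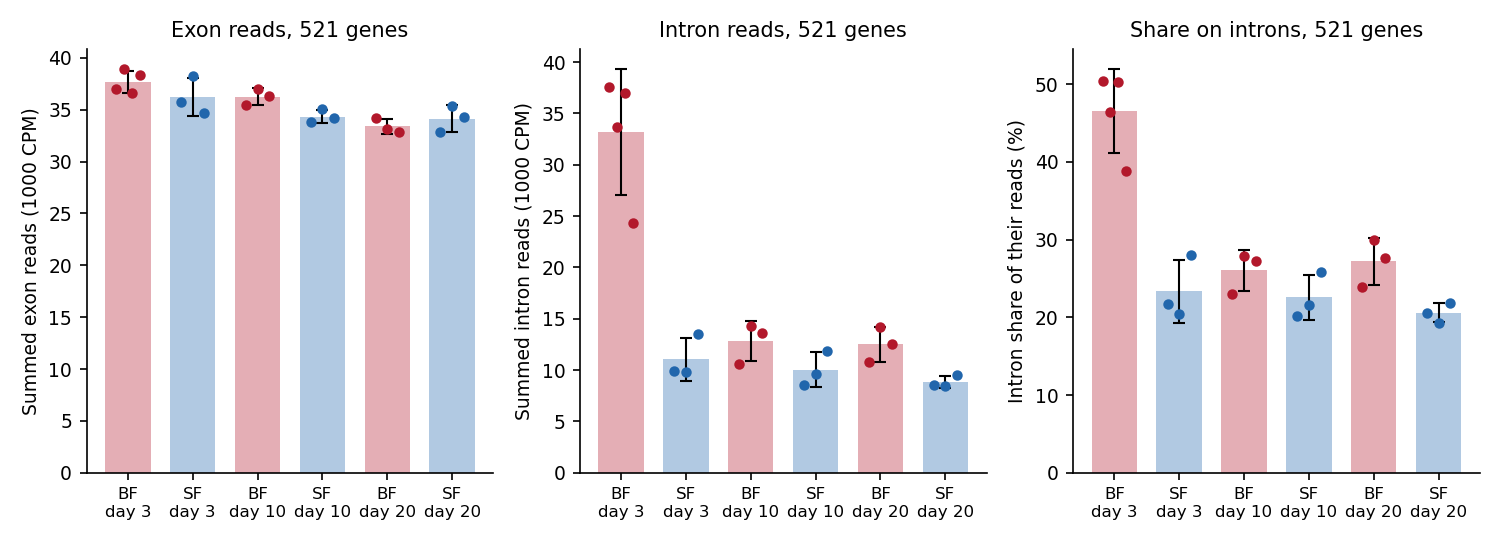
Summed exon reads and intron reads of the 521 genes (1000 CPM) and the intron share of their reads (%), by group. Points are libraries, bars are group means and error bars are SD (n = 4 for BF day 3 and n = 3 for the others); exon sums differ little between groups, while BF day 3 libraries stand above all others in intron reads and intron share.

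Gene by gene, the intron rise on day 3 covered nearly all of the 521 genes and was shared by most of the transcriptome. Intron reads rose in BF ovaries for 516 genes and fell for none (edgeR quasi-likelihood test, FDR p-value below 0.05), against 83.6% of all 9976 genes tested that rose and 1.69% that fell. At an unadjusted p below 0.05 in edgeR the count was 517, against 8570 of all 9976 genes. DESeq2 gave 517 rises and 0 falls, and its share of all genes is not given here. The median log2 fold change was 1.47 in the 521 genes and 1.31 in all genes tested. The fold change exceeded 2-fold (log2 above 1) in 470 of those that rose and 4-fold (log2 above 2) in 65, and the whole range ran from -0.01 to 4.75. The shares of all genes past these limits are not given here. The quartiles were 1.22 and 1.72 in the 521 genes and 0.89 and 1.64 in all genes tested. For 514 of the 521 genes every BF library lay above every SF library, and the share of all genes so separated is not given here. Among the 521 genes, all 204 with at least 500000 bases of intron rose (median 1.42), as did 169 of the 171 genes with no other gene inside them (median 1.46).

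These values are set on the scale of the library's gene reads. When intron reads were scaled on themselves (TMM of the intron reads), a shift of 1.32 on the log2 scale between BF and SF day 3 libraries was removed, and 166 of the 521 genes then rose and 52 fell, with a median of 0.15, against 16.6% and 20.5% of all genes. The shift common to most genes was nearly as large as the median rise of the 521 genes, and relative to that shift more of them were above than below.

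**Figure D2:**
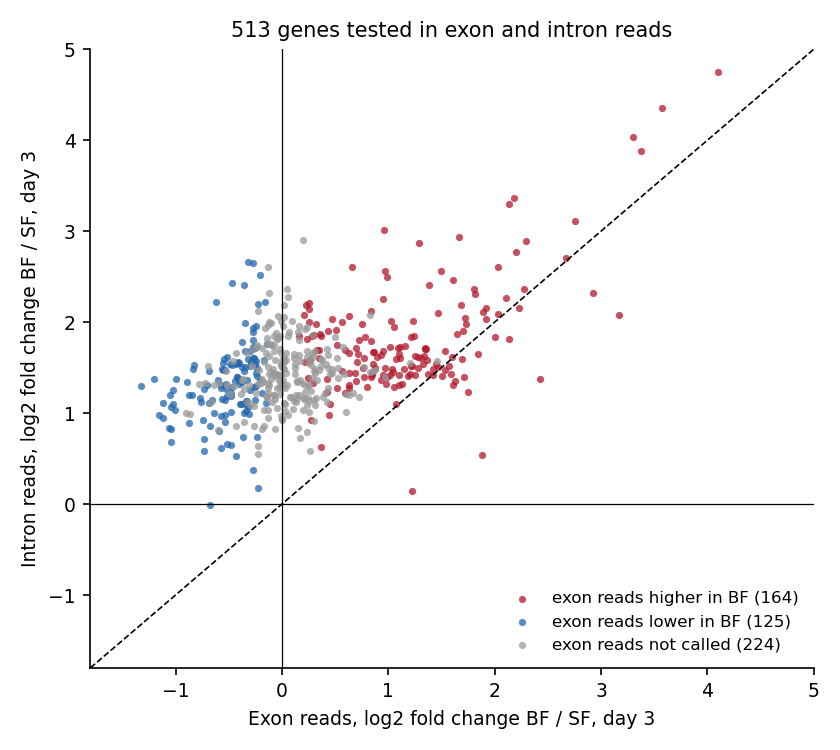
Log2 fold change (BF over SF, day 3) of exon reads (x axis) and intron reads (y axis) for the 513 genes tested in both, coloured by the call in exon reads. The dashed line marks equal change; nearly all genes lie above 0 on the y axis, whether their exon reads were higher (164 genes), lower (125 genes) or not called (224 genes).

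The 5 largest intron rises on day 3 were in AAEL025750, AAEL024454, AAEL017300, AAEL000788 and AAEL020093. AAEL025750 (chromosome 1, 257107964 to 257426611, 21 exons, 314193 bases of intron) had 177.9, 122.1, 61.5 and 190.6 CPM of intron reads in BF day 3 replicates 1 to 4, against 4.62, 4.64 and 5.72 CPM in SF day 3 libraries. Its BF libraries were all above its SF libraries, with a 26.9-fold difference (log2 4.75 ± 0.31 SE, FDR p-value 1.62e-13). Its exon reads also differed: 54.6, 53.8, 27.2 and 70.0 CPM in BF and 3.58, 2.37 and 2.80 CPM in SF libraries (log2 4.10 ± 0.27 SE, FDR p-value 1.46e-09). Reads across its exon-exon junctions rose with them (17.7 ± 6.12 CPM in BF and 1.17 ± 0.310 CPM in SF, SD, n = 4 and 3).

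AAEL024454 (chromosome 2, 142746040 to 143101193) has only 2 exons around 349809 bases of intron. It had 503.3, 667.5, 222.2 and 909.2 CPM of intron reads in BF day 3 ovaries and 21.96, 25.6 and 34.8 CPM in SF day 3 ovaries (log2 4.35 ± 0.67 SE, FDR p-value 2.76e-05). Its exon reads were 246.0, 325.2, 147.3 and 456.3 CPM in BF and 22.1, 25.6 and 24.03 CPM in SF ovaries. Both kinds of reads were separated between the groups, and replicate 3 was the lowest of the 4 BF libraries in each. AAEL000788 (chromosome 3, 244312533 to 244886294) had 240.3, 183.1, 99.7 and 231.8 CPM of intron reads in BF and 11.6, 12.5 and 13.4 CPM in SF libraries (log2 3.88 ± 0.26 SE, FDR p-value 1.25e-13). AAEL017300 (chromosome 2, 46371726 to 46790208) had 68.8, 35.1, 20.5 and 45.0 CPM in BF and 2.34, 2.10 and 3.14 CPM in SF libraries. AAEL020093 (chromosome 3, 63767166 to 64072392) had 168.1, 123.4, 47.0 and 191.0 CPM against 11.01, 11.1 and 15.5 CPM. In all of these, replicate 3 was again the lowest BF library and still above every SF library.

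The 5 genes with the longest introns were AAEL003982, AAEL000729, AAEL008010, AAEL019862 and AAEL019844, with 1419591, 1413716, 1172656, 1152864 and 1141709 bases. All 5 rose in intron reads on day 3, by log2 1.22 to 1.59. AAEL003982 (chromosome 2, 279372518 to 280797969) had 44.1, 44.4, 38.8 and 43.9 CPM of intron reads in BF and 15.9, 13.2 and 19.4 CPM in SF libraries (log2 1.36 ± 0.18 SE, FDR p-value 3.72e-08). Its exon reads overlapped between the groups, at 1.22, 1.501, 1.25 and 0.990 CPM in BF and 1.26, 1.29 and 0.651 CPM in SF libraries, and were not called (FDR p-value 0.647). AAEL000729 (chromosome 2, 53198484 to 54617076) and AAEL008010 (chromosome 1, 163284177 to 164462696) were likewise not called in exon reads (FDR p-values 0.317 and 0.600), and for these 3 genes the sign of the exon difference turned when junction reads were used. The exon reads of AAEL019862 (chromosome 2, 93483774 to 94654168) fell while its intron reads rose: it had 77.8, 74.2, 85.8 and 79.5 CPM of exon reads in BF and 110.1, 118.7 and 91.6 CPM in SF libraries (log2 -0.47 ± 0.09 SE, FDR p-value 0.000166). Its intron rise was lost when intron reads were scaled on themselves, where its difference was -0.12 on the log2 scale. AAEL019844 (chromosome 1, 269214188 to 270362210) rose in both, with exon reads of 4.51, 5.34, 4.80 and 4.31 CPM in BF and 1.78, 2.51 and 1.48 CPM in SF libraries (log2 1.25 ± 0.23 SE, FDR p-value 0.000133).

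The intron reads of 5 genes were not called on day 3, and these were named after their values were seen. AAEL010576 (chromosome 1, 301364360 to 301784078) is the gene with the most exons, 106, and 50 annotated transcripts. It had 201.3, 219.9, 202.8 and 196.2 CPM of intron reads in BF and 191.3, 202.6 and 208.1 CPM in SF day 3 libraries (log2 -0.01 ± 0.18 SE, FDR p-value 0.949). These ranges overlapped, and the sign of this difference turned under library size alone, under the replicate block and without BF day 3 replicate 4. Its exon reads fell, at 1096, 1106, 1280 and 1051 CPM in BF and 1660, 1817 and 1771 CPM in SF libraries (log2 -0.67 ± 0.07 SE, FDR p-value 2.28e-07). AAEL009777 had 138.8 ± 19.7 CPM of intron reads in BF and 121.8 ± 38.2 CPM in SF ovaries, and AAEL018695 had 189.6 ± 24.02 CPM and 162.8 ± 21.9 CPM (SD, n = 4 and 3). AAEL018320 had 324.7 ± 33.3 CPM in BF and 243.6 ± 10.5 CPM in SF ovaries (FDR p-value 0.0574), and AAEL001232 had 68.7 ± 10.7 CPM and 46.0 ± 19.2 CPM (FDR p-value 0.274).

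Exon reads changed in both directions on day 3. Of the 513 genes with enough exon reads for the test, 164 rose and 125 fell in BF ovaries, against 21.6% and 40.2% of all 13194 genes tested, and the median log2 fold change was 0.09 in the long genes and -0.18 in all genes. The other 8 of the 521 genes were too low in exon reads to be tested (at most 0.0607 CPM per kb of exon). The rise exceeded 2-fold (log2 above 1) in 91 genes and the fall did so in 13, and the shares of all genes past 2-fold are not given here. The quartiles of the log2 fold change were -0.27 and 0.72 in the long genes and -0.52 and 0.49 in all genes. The balance of the 2 directions rested on single libraries: without SF day 3 replicate 4, 138 rose and 140 fell (median -0.02), and without BF day 3 replicate 3, 154 rose and 143 fell (median 0.0099). When exon reads were scaled on themselves, 220 rose and 67 fell, against 28.5% and 27.3% of all genes. With reads across exon-exon junctions, which hold no reads from unspliced RNA, 108 of 473 genes rose and 151 fell, against 15.7% and 47.8% of all genes tested, so more of the long genes fell than rose on that measure.

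The 5 largest exon rises on day 3 were in AAEL025750, AAEL024454, AAEL000788, AAEL017300 and AAEL027400, of which all but AAEL027400 were also among the 5 largest intron rises. AAEL000788 had 79.9, 80.6, 56.9 and 88.2 CPM of exon reads in BF and 7.53, 7.21 and 6.75 CPM in SF libraries (log2 3.37 ± 0.20 SE, FDR p-value 7.66e-10). AAEL017300 had 54.8, 36.3, 22.5 and 43.1 CPM in BF and 4.22, 3.74 and 3.65 CPM in SF libraries (log2 3.30 ± 0.28 SE, FDR p-value 1.98e-08). AAEL027400 (chromosome 3, 83027453 to 83796824) had 32.9, 36.7, 27.0 and 43.6 CPM in BF and 3.76, 4.15 and 3.45 CPM in SF libraries (log2 3.17 ± 0.20 SE, FDR p-value 6.53e-10). None of these ranges overlapped, and each of the 5 genes rose by log2 2.96 to 3.88 in junction reads as well.

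The 5 largest exon falls were smaller, at log2 -1.32 to -1.11, and in all 5 genes the intron reads rose on the scale of the gene reads. AAEL022431 (chromosome 2, 42125804 to 42456173) had 3.29, 3.55, 3.795 and 3.68 CPM of exon reads in BF and 8.61, 9.60 and 7.85 CPM in SF libraries (log2 -1.32 ± 0.18 SE, FDR p-value 5.27e-06). Its intron reads were 6.07, 7.13, 5.11 and 6.71 CPM in BF and 2.24, 2.23 and 2.92 CPM in SF libraries (log2 1.30 ± 0.20 SE, FDR p-value 7.41e-07). Exon and intron reads of this gene were thus both separated between the groups, in opposite directions. AAEL022465 (chromosome 2, 11302714 to 11697650) had 1.60, 1.64, 2.96 and 2.73 CPM of exon reads in BF and 5.18, 5.01 and 4.83 CPM in SF libraries, and 7.98 ± 0.756 CPM of intron reads in BF and 2.98 ± 0.575 CPM in SF ovaries (SD, n = 4 and 3). AAEL017331 (chromosome 1, 150963290 to 151661822), which has 8 other genes inside it, had 1.60, 1.39, 2.06 and 1.61 CPM of exon reads in BF and 4.02, 3.94 and 2.82 CPM in SF libraries, with 57.1 ± 4.75 CPM of intron reads in BF and 28.1 ± 2.32 CPM in SF ovaries. AAEL009723 (log2 -1.12 ± 0.23 SE, FDR p-value 0.000324) and AAEL007146 (log2 -1.11 ± 0.23 SE, FDR p-value 0.000615) followed. Over the whole group, intron reads rose in 162 of the 164 genes whose exon reads rose (median 1.68 over the 164) and in 122 of the 125 whose exon reads fell (median 1.31 over the 125). Both counts lay near the 516 of 521 genes that rose in intron reads. The shares of all genes in the same split are not given here. Across the 513 genes, which share libraries and are not independent, Pearson's r of the exon and intron log2 fold changes was 0.54, and across all 9532 genes tested in both it was 0.59.

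The 5 genes with the most exon reads per kb of exon were AAEL019474, AAEL012233, AAEL007562, AAEL019551 and AAEL010576, at 64.7 to 201 CPM per kb. All 5 fell in exon reads on day 3, by log2 -0.87 to -0.27, and all but AAEL010576 rose in intron reads. AAEL019474 (chromosome 2, 456091325 to 457096618) had 1278, 1457, 1622 and 1160 CPM of exon reads in BF and 1623, 1684 and 1517 CPM in SF libraries, ranges that overlapped (log2 -0.27 ± 0.10 SE, FDR p-value 0.0256). This call was lost without SF day 3 replicate 2 and without BF day 3 replicate 4, with FDR p-values up to 0.0964. Its intron reads were 721.1, 652.2, 480.4 and 700.2 CPM in BF and 126.6, 140.4 and 220.6 CPM in SF libraries (log2 1.93 ± 0.25 SE, FDR p-value 4.58e-08). AAEL019551 (chromosome 2, 176358272 to 176703516) had 135.3, 130.0, 140.9 and 159.4 CPM of exon reads in BF and 273.4, 258.0 and 220.7 CPM in SF libraries (log2 -0.87 ± 0.09 SE, FDR p-value 9.62e-08). Its intron reads rose to 63.2 ± 11.1 CPM in BF ovaries, against 33.1 ± 8.13 CPM in SF ovaries (SD, n = 4 and 3), and those of AAEL012233 to 76.4 ± 7.82 CPM against 34.2 ± 8.91 CPM. With intron reads scaled on themselves, both signs turned, to log2 -0.42 for AAEL019551, which still passed the test, and to -0.18 for AAEL012233.

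The ratio of intron to exon reads, tested within libraries, rose on day 3 for 420 of 513 genes and fell for 6, against 74.8% and 1.53% of all 9532 genes tested (median log2 1.33 in the long genes and 1.35 in all genes). It rose in 124 of the 125 genes whose exon reads fell and in 89 of the 164 whose exon reads rose. Exon reads are the lower part of the ratio, so this split by exon call bears on the outcome by itself. The shares of all genes in the same split are not given here. With each kind of read scaled on itself, 96 rose and 194 fell (median -0.19), and the share of all genes under that setting is not given here. In the main fit, exon and intron reads of a library had the same size, so the choice of that size does not set the ratio. Scaling each kind on itself gives them different sizes and removes the shift common to most genes. The counts under that setting thus describe change relative to the typical gene. The largest rises were in AAEL019951, AAEL001549 and AAEL007562, which had fewer exon reads and several-fold more intron reads in BF ovaries. AAEL019951 (chromosome 3, 405923548 to 406255713) had 152.7, 125.8, 82.1 and 138.0 CPM of intron reads in BF and 17.5, 16.2 and 24.3 CPM in SF libraries, and 111.0 ± 8.51 CPM of exon reads in BF and 130.3 ± 6.49 CPM in SF ovaries (ratio log2 2.91 ± 0.23 SE, FDR p-value 1.30e-11). AAEL001549 (chromosome 2, 20544599 to 20914618) had 206.8, 135.2, 74.7 and 165.2 CPM of intron reads in BF and 19.4, 19.6 and 28.2 CPM in SF libraries. AAEL007562 (chromosome 2, 248448605 to 248861613) had 207.0, 139.8, 85.8 and 190.2 CPM in BF and 26.2, 24.5 and 34.03 CPM in SF libraries. None of these intron ranges overlapped. The largest falls of the ratio were in AAEL001232 (log2 -1.29 ± 0.29 SE), AAEL027400 (-1.08 ± 0.21) and AAEL013367 (-1.07 ± 0.34), in which exon reads rose more than intron reads. AAEL001232 (chromosome 2, 60889002 to 61195048) had 104.6, 115.6, 109.2 and 125.3 CPM of exon reads in BF and 31.6, 25.5 and 32.9 CPM in SF libraries, while its intron reads, given above, were not called.

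The day 3 changes were also described by exon level: the 521 genes were ordered by their mean exon reads per kb of exon over all 19 libraries and divided into quartiles, which were not tested against each other. In the highest quartile (13.6 to 201 CPM per kb) exon reads rose in 20 of 130 genes and fell in 69, with a median log2 fold change of -0.23. In the lowest (0.0126 to 0.429 CPM per kb) they rose in 42 of 123 genes tested and fell in 5, with a median of 0.42. Junction reads gave medians of -0.32 in the highest and 0.19 in the lowest quartile, in which only 83 genes could be tested. Intron reads rose in 126 of 130 genes of the highest and in all 131 of the lowest quartile, with medians of 1.56 and 1.40. Per Mb of intron, the median intron level was 232 CPM in BF and 74.1 CPM in SF ovaries in the highest quartile, and 29.3 CPM and 11.01 CPM in the lowest. Intron reads were thus seen at a low level even in genes with almost no exon reads. Their rise there, on the scale of the gene reads, was close to that of most genes. Over all genes tested the median was 1.31 and 83.6% rose.

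**Figure D3:**
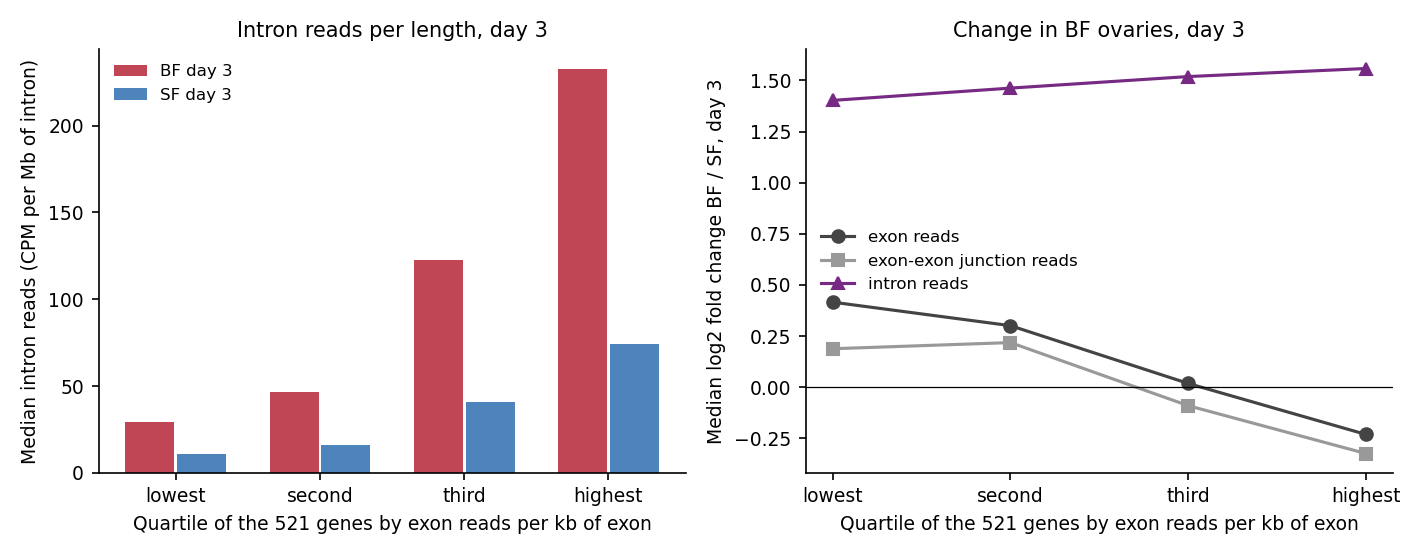
The 521 genes in quartiles of exon reads per kb of exon. The left panel gives the median intron reads per Mb of intron (CPM) in BF and SF day 3 ovaries, and the right panel the median log2 fold change (BF over SF, day 3) of exon, junction and intron reads; the intron medians stay between 1.40 and 1.56 while the exon medians run from 0.42 down to -0.23.

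Protein-coding genes with a mean of at least 50 reads were set in classes of intron length for day 3. The exon medians stepped with every class, while the intron medians were nearly level from 100 kb upward. The median log2 fold change of exon reads was 0.09 in the 521 genes, -0.04 in genes with 100 to 300 kb of intron, -0.26 with 10 to 100 kb and -0.36 under 10 kb. That of intron reads was 1.47, 1.46, 1.35 and 0.99 in the same order, and 1.42 in the 204 genes with at least 500000 bases of intron. The median of the intron-to-exon ratio was 1.33, 1.44, 1.51 and 1.16 in that order and did not step with length. Genes of these classes also differed in exon level, as given above, and the difference between classes was not tested. The 25 genes of the same length with symbols had medians of 0.38 in exon and 1.53 in intron reads, and 24 of them rose in intron reads. Among these, EcR, the ecdysone receptor, which relays the steroid signal that follows a blood meal, had 745982 bases of intron and moved like AAEL019862: its exon reads fell (log2 -0.35 ± 0.06 SE, FDR p-value 7.45e-05) and its intron reads rose (1.10 ± 0.23, FDR p-value 4.79e-05). This intron rise was below the median of 1.31 in all genes tested. Its value with intron reads scaled on themselves is not given here.

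**Figure D4:**
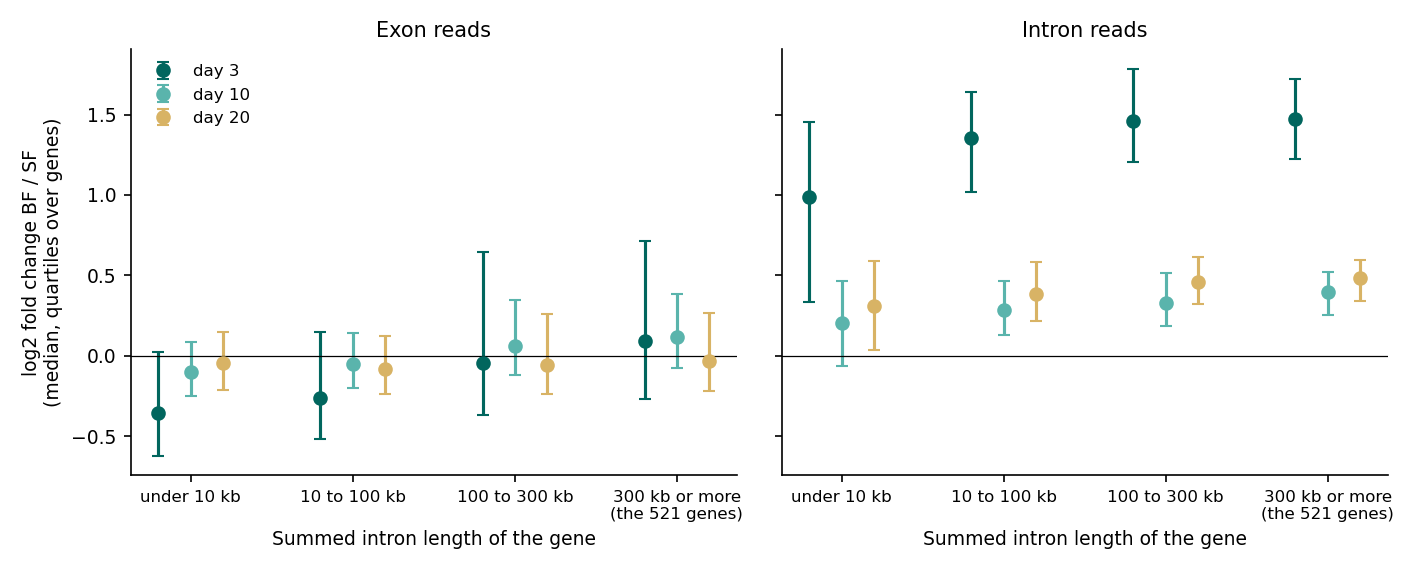
Log2 fold change (BF over SF) of exon reads (left) and intron reads (right) on days 3, 10 and 20, for protein-coding genes in classes of summed intron length. Points are medians and bars the quartiles over genes; intron medians are highest on day 3 in every class, and the 521 genes lie at 1.47 there.

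On day 10 the intron reads of 33 of the 521 genes were still higher in BF ovaries and none were lower, against 2.66% and 0.0702% of all genes tested (median log2 0.39 in the long genes and 0.30 in all genes). At an unadjusted p below 0.05 in edgeR the count was 225, against 2128 of all 9976 genes tested. DESeq2 gave 113 rises and 0 falls, and its share of all genes is not given here. The fold change was above 0 in 501 of the 521 genes, against 8264 of all 9976 genes tested. Every BF library lay above every SF library in 233 of the 521, and the share of all genes so separated is not given here. AAEL003301 (chromosome 3, 340372276 to 340809165), which has 10 other genes inside it, had 20.96, 25.3 and 21.7 CPM of intron reads in BF day 10 and 11.3, 10.7 and 9.42 CPM in SF day 10 libraries (log2 1.05 ± 0.18 SE, FDR p-value 0.00246). Its groups did not overlap, and it was called without any 1 library. The other 4 of the 5 largest rises lost their call without SF day 10 replicate 1 and without BF day 10 replicate 2: AAEL024632 (log2 1.07), AAEL000788 (1.04, also lost without BF day 10 replicate 4), AAEL005649 (0.97) and AAEL023884 (0.96). None of the intron reads of AAEL024632 were counted as unique to it, so they may belong to another copy. The count of 33 was 1 without BF day 10 replicate 2, 2 without SF replicate 1, 7 without SF replicate 2, 13 without BF replicate 4 and 65 without BF replicate 1.

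On day 20 intron reads rose in 90 genes and fell in none, against 7.97% and 0.0401% of all genes tested (median log2 0.48 in the long genes and 0.39 in all genes). The fold change was above 0 in 512 of the 521 genes, against 8682 of all 9976 genes tested. At an unadjusted p below 0.05 in edgeR the count was 313, against 3081 of all genes tested. DESeq2 gave 191 rises and 1 fall, and its share of all genes is not given here. In 411 genes every BF library lay above every SF library, and the share of all genes so separated is not given here. AAEL022136 (chromosome 2, 192362854 to 192771340) had 55.2, 89.6 and 86.7 CPM in BF day 20 and 36.7, 35.7 and 33.6 CPM in SF day 20 libraries (log2 1.05 ± 0.24 SE, FDR p-value 0.0111), and lost its call only without SF replicate 2 (0.0579). AAEL025750 had 8.50, 8.05 and 8.92 CPM in BF and 3.20, 3.14 and 3.75 CPM in SF libraries (log2 1.26 ± 0.28 SE, FDR p-value 0.0112). These ranges were well apart, but this call was lost without SF day 20 replicate 1 or 2. The other 3 of the 5 largest, AAEL023148, AAEL024632 and AAEL019454 (log2 0.98 to 1.17), lost their call without at least 3 of the 6 libraries, always including SF day 20 replicates 1 and 2 and BF day 20 replicate 2. The count of 90 was 1 without SF replicate 2, 4 without SF replicate 1, 5 without BF replicate 2, 19 without BF replicate 4, 54 without SF replicate 4 and 135 without BF replicate 1 (the last within 1.5 times of 90). In 15 genes intron reads rose on all 3 days, against 1.15% of all genes tested. Scaled on themselves, intron reads gave 5 rises and no falls on day 10, against 0.357% and 0.525% of all genes, and 3 rises and 3 falls on day 20, against 0.546% and 0.861%.

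Exon reads of the 513 genes rose in 69 and fell in 14 on day 10, against 6.58% and 12.3% of all genes tested. The largest changes called without any 1 library were those of AAEL009196, AAEL025750, AAEL008421 and AAEL000717. AAEL009196 (chromosome 3, 390549453 to 390856712) had 3.26, 3.47 and 3.50 CPM in BF day 10 and 1.06, 1.15 and 1.19 CPM in SF day 10 libraries (log2 1.53 ± 0.22 SE, FDR p-value 0.000301). AAEL025750 had 4.82, 6.45 and 4.50 CPM in BF and 2.04, 2.05 and 2.24 CPM in SF libraries (log2 1.25 ± 0.26 SE, FDR p-value 0.00392). AAEL000717 (chromosome 2, 459745241 to 460155140) had 20.8, 21.2 and 23.7 CPM in BF and 64.1, 77.3 and 62.8 CPM in SF libraries (log2 -1.70 ± 0.35 SE, FDR p-value 0.00476). In each of these genes the groups were apart. AAEL008421 (log2 1.10) and AAEL001532 (-0.36), which lies just inside the length limit, were also called throughout. AAEL002676 (1.21), AAEL006394 (1.10), AAEL021479 (-1.17), AAEL017331 (-0.66) and AAEL019579 (-0.41) each lost their call without any of 4 to 6 single libraries of day 10. The 83 calls were 32 without BF day 10 replicate 2, 48 without SF replicate 4 and 50 without SF replicate 1.

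On day 20 exon reads rose in 49 genes and fell in 66, against 7.41% and 14.5% of all genes tested. Which direction was more frequent changed with the setting: 57 rose and 33 fell with library size alone, 53 and 49 with exon reads scaled on themselves, 44 and 28 without SF day 20 replicate 2, 37 and 32 without BF replicate 2, and 46 and 41 without BF replicate 4. AAEL001232 had 59.9, 41.8 and 59.4 CPM in BF day 20 and 21.1, 21.8 and 26.7 CPM in SF day 20 libraries (log2 1.14 ± 0.19 SE, FDR p-value 0.00108). AAEL027400 had 6.63, 5.04 and 6.08 CPM in BF and 2.54, 3.35 and 2.02 CPM in SF libraries (log2 1.09 ± 0.20 SE, FDR p-value 0.00142). AAEL021982 (chromosome 2, 152216891 to 152574112) had 3.11, 3.13 and 4.60 CPM in BF and 1.15, 1.74 and 1.24 CPM in SF libraries (log2 1.32 ± 0.29 SE, FDR p-value 0.00431). These 3 rises held without any 1 library, as did the fall of AAEL000717, which had 24.1, 8.36 and 20.1 CPM in BF and 45.2, 37.5 and 59.3 CPM in SF libraries (log2 -1.50 ± 0.35 SE, FDR p-value 0.00854). AAEL019483 (log2 -2.33 ± 0.64 SE), which had only 30 reads over the 3 BF libraries and 146 over the 3 SF libraries, lost its call without BF replicate 2 or BF replicate 4. AAEL021067 (-1.29) lost it without SF replicate 2 or BF replicate 4, AAEL019757 (-1.24) without SF replicate 4 or BF replicate 4, AAEL025125 (1.09) without BF replicate 2 or SF replicate 4, and AAEL017445 (1.17) and AAEL021479 (-1.15) without any of 4 libraries. The 115 calls were 69 without BF day 20 replicate 2, 72 without SF replicate 2 and 72 without SF replicate 4.

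The ratio of intron to exon reads rose in 2 genes and fell in none on day 10 (0.629% and 0.0315% of all genes tested), and rose in 96 and fell in none on day 20 (10% and 0.0944%). At an unadjusted p below 0.05 in edgeR there were 90 of 513 genes on day 10, against 1815 of all 9532. On day 20 there were 228, against 2962. DESeq2 called 0 and 43 on these days, and its share of all genes is not given here. The day 20 median was 0.47 in the long genes and 0.40 in all genes. The 2 genes of day 10 were AAEL013424 (log2 2.01 ± 0.42 SE), with 22 exon reads over the 3 BF libraries, and AAEL021479 (1.39 ± 0.31 SE). Each lost its call without any of 4 single libraries and under DESeq2. On day 20 the ratio of AAEL000717 (1.82 ± 0.37 SE, FDR p-value 0.00840) and AAEL019757 (1.63 ± 0.33 SE, FDR p-value 0.00627) was called without any 1 library, and that of AAEL001010 (2.38 ± 0.68 SE), with 6 exon reads over the BF libraries, was lost without 5 of the 6. The 96 calls were 5 without SF day 20 replicate 2, 7 without BF replicate 2, 20 without BF replicate 4 and 24 without SF replicate 1.

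Exon reads rose on all 3 days in 29 genes and fell on all 3 days in 11, while 187 of the 513 tested were called on no day, against 2.55%, 6.37% and 32% of all genes tested. The comparisons of different days share no library, but they were fitted together with a common estimate of each gene's spread. Calls on different days are thus not independent. AAEL025750, AAEL000788 and AAEL027400 were among the genes that rose throughout, and AAEL000717, AAEL021479, AAEL017331 and AAEL007562 among those that fell throughout. AAEL000717 had 52.7, 21.1, 38.1 and 26.7 CPM of exon reads in BF day 3 and 58.8, 76.6 and 75.6 CPM in SF day 3 libraries (log2 -1.06 ± 0.32 SE, FDR p-value 0.00920), so that it was lower in BF ovaries at each time. Exon reads of 5 genes fell on day 3 and rose on day 10: AAEL018317 (log2 -0.35 and 0.45), AAEL027135 (-0.30 and 0.38), AAEL019474 (-0.27 and 0.35), AAEL020018 (-0.24 and 0.21) and AAEL019863 (-0.39 and 0.31), the last of which also rose on day 20 (0.34). The opposite order was seen in AAEL019579, which rose on day 3 (1.39) and fell on day 10 (-0.41), and in AAEL000504 (0.80 and -1.12), AAEL000860 (0.32 and -0.32), AAEL013723 (0.36 and -0.26) and AAEL006120 (0.25 and -0.24), which rose on day 3 and fell on day 20. In junction reads only the pattern of AAEL019579 was called on both days. The day 10 rises of the 5 genes were not called there (FDR p-values 0.0539 for AAEL018317, 0.0815 for AAEL027135, 0.154 for AAEL019474, 0.142 for AAEL020018 and 0.173 for AAEL019863), nor was the day 20 rise of AAEL019863 (0.0571). The day 3 junction difference was negative in AAEL013723 (log2 -0.12, FDR p-value 0.257) and AAEL000860 (-0.058, 0.606) and was not called in AAEL006120 (0.15, 0.168) or AAEL000504 (1.14, 0.0599). These genes were named after their values were seen, and the shares of all genes with such opposite calls are not given here.

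**Figure D5:**
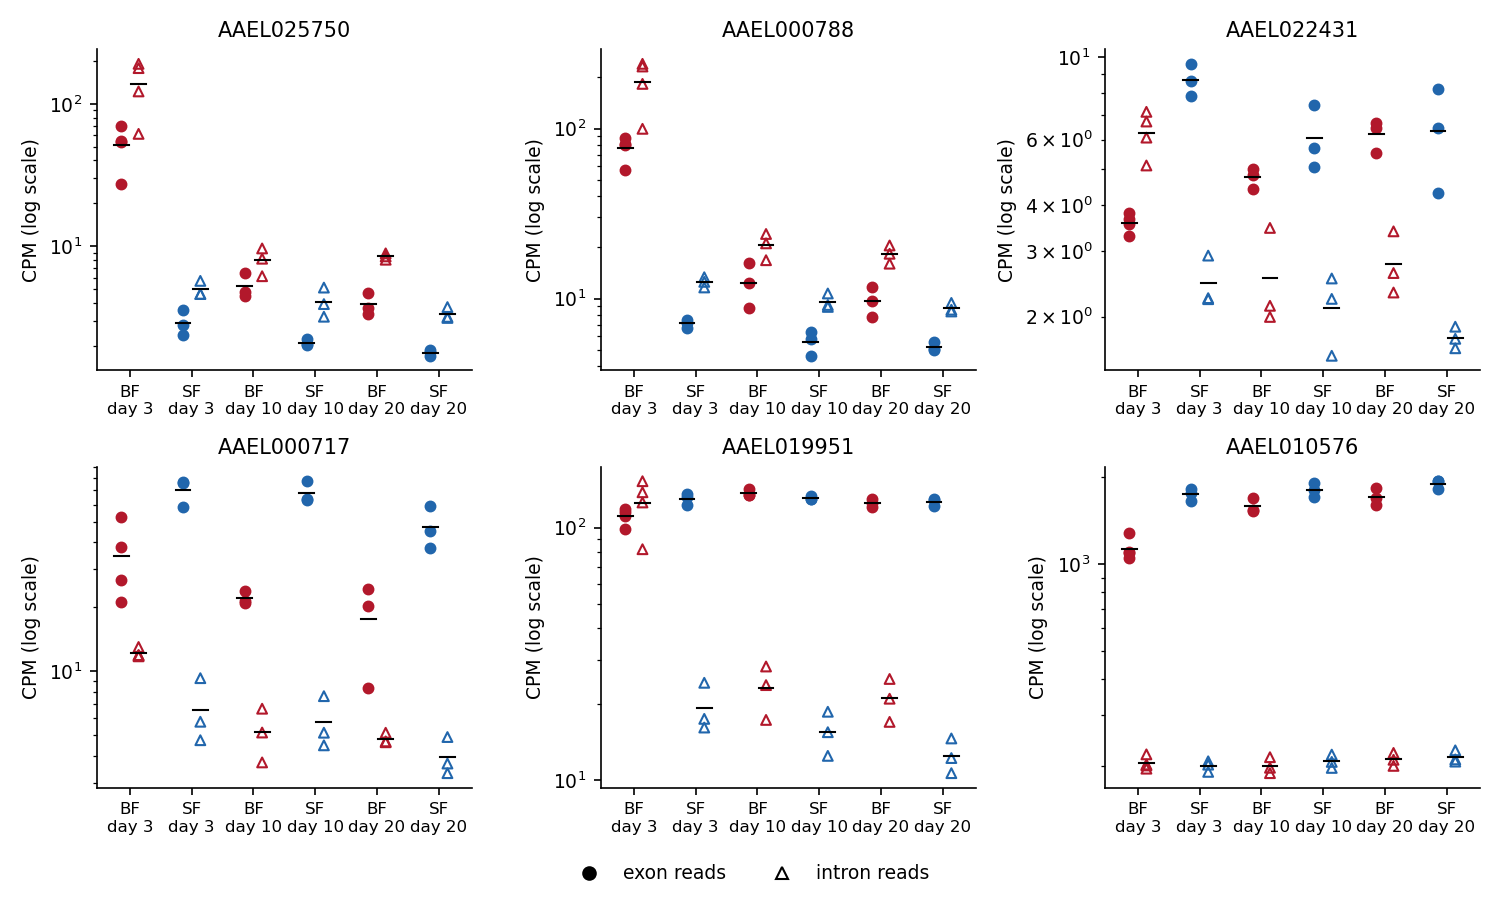
Exon reads (filled circles) and intron reads (open triangles) of 6 of the genes in every library, in CPM on a log axis, by group; short lines are group means. AAEL025750 and AAEL000788 are highest in BF day 3 ovaries in both kinds of reads, AAEL022431 has fewer exon and more intron reads in BF day 3 ovaries, AAEL000717 has fewer exon reads in BF ovaries on each day, AAEL019951 changes in intron reads, and the intron reads of AAEL010576 overlap between BF and SF day 3.

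The blood-meal effect of day 3 was tested against that of day 20 (interaction). In intron reads the day 3 effect was larger in 446 of the 521 genes and smaller in none, against 52.1% and 1.13% of all genes tested, with a median difference of 0.99 on the log2 scale. At an unadjusted p below 0.05 in edgeR the count was 475, against 5995 of all 9976 genes. DESeq2 gave 449 larger and 0 smaller, and its share of all genes is not given here. In exon reads it was higher in 101 and lower in 40 of 513 genes, against 12.1% and 24% of all genes tested. The largest exon differences upward were in AAEL017300 (log2 3.17 ± 0.39 SE), AAEL024454 (3.07 ± 0.58) and AAEL025750 (3.05 ± 0.37), the same 3 genes that led in intron reads (3.38 ± 0.42, 3.59 ± 0.85 and 3.49 ± 0.39). AAEL017300 had 5.41, 3.25 and 2.56 CPM of exon reads in BF day 20 libraries, against 2.99, 3.73 and 3.03 CPM in SF day 20 libraries, and these ranges overlapped. The largest exon differences downward were in AAEL022465 (-1.91 ± 0.45 SE), AAEL021982 (-1.45 ± 0.40) and AAEL022431 (-1.22 ± 0.27). AAEL022465 had fewer exon reads in BF than in SF ovaries on day 3, but 5.05, 6.21 and 13.9 CPM in BF and 4.39, 4.95 and 5.41 CPM in SF libraries on day 20, where it was not called (FDR p-value 0.137).

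Change with time was tested in SF ovaries. Between SF day 20 and SF day 3 ovaries, exon reads of 7 genes rose and of 68 fell, against 11.5% and 5.8% of all genes tested (median log2 -0.16 in the long genes and 0.01 in all genes). AAEL023810 (chromosome 2, 139976965 to 140760002) had 2.03, 1.83 and 2.40 CPM in SF day 20 and 5.74, 7.31 and 5.84 CPM in SF day 3 libraries (log2 -1.55 ± 0.31 SE, FDR p-value 0.00316). AAEL001196 (chromosome 2, 409722290 to 410415986) had 0.373, 0.430 and 0.610 CPM in SF day 20 and 2.36, 2.08 and 0.848 CPM in SF day 3 libraries (log2 -1.86 ± 0.42 SE, FDR p-value 0.00641). Both falls held without any 1 library, whereas that of AAEL000729 (-1.23 ± 0.35) was lost without SF day 3 replicate 1 and without SF day 20 replicates 1 or 4. The rises were small and uncertain: AAEL010711 (0.36 ± 0.09) lost its call without SF day 3 replicate 1 and without SF day 20 replicate 2, and AAEL010881 (0.64 ± 0.21) and AAEL027135 (0.39 ± 0.12) without 5 of the 6 libraries. The 75 calls were 37 without SF day 3 replicate 1, 35 without SF day 20 replicate 1 and 46 without SF day 20 replicate 4. Intron reads rose in no gene and fell in 1, AAEL002876, against 0% and 0.251% of all genes tested. At an unadjusted p below 0.05 in edgeR the count was 178, against 1646 of all 9976 genes. DESeq2 gave 1 rise and 30 falls, and its share of all genes is not given here. AAEL002876 (chromosome 1, 254494021 to 255034820) had 4.03, 3.53 and 4.15 CPM of intron reads in SF day 20 and 8.05, 6.44 and 8.28 CPM in SF day 3 libraries (log2 -0.91 ± 0.20 SE, FDR p-value 0.0393), and this call was lost without 5 of the 6 libraries. The median intron change of the 521 genes was -0.36 and 17 of them lay above 0, against -0.25 and 1975 of all 9976 genes tested.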

How the data were processed

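Total RNA depleted of ribosomal RNA was sequenced from pooled ovaries (19 libraries, stranded kit). After trimming, the authors aligned read pairs to AaegL5.0 with CLC Genomics Workbench v.20 and deposited raw counts of gene, exon, exon-exon junction and intron reads per gene. Strand setting, annotation release and treatment of multi-mapped pairs: not given in the sources used here. Gene reads equalled exon plus intron reads in each library. The deposited RPKM values served only to obtain the mapped pairs per library.

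Exon and intron counts were fitted with edgeR 4.0.16 (R 4.3.3; quasi-likelihood, robust, 6 groups, filterByExpr with its minimum of 10 counts), with the TMM-scaled total of gene reads as library size for both. The ratio was fitted with exon and intron columns of each library and the library as a block. FDR p-values are Benjamini-Hochberg over all genes tested, with calls below 0.05. CPM are per 1000000 gene reads. Replicates differed by more than sampling noise (chi-square per degree of freedom at least 16.3). P-values measure the spread between these pooled samples.

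The members and lists were chosen with earlier results of these data known. Named were the 5 longest genes, the 5 with most exon reads per kb, the 5 (ratio, age and interaction: 3) largest called changes each way per comparison, and the 2 genes on each side of the limits. Lists by protein role, and part of the marker list, could not be applied because the identifiers carry no names here. Reads shared between copies, and overlapping genes, are uncertain: a median of 93.9% of a gene's intron reads were unique. Alternatives tried were other size factors, no low-count filter, DESeq2 1.42.0, a replicate block, days fitted alone, unique reads, other length limits, libraries left out and, chosen after seeing the data, junction reads and genes with none inside. Scripts were tested on simulated data.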

Additional observations from a re-analysis of the deposited data

Results flagged for a closer look

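In BF day 3 ovaries, the only group with 4 libraries, the library that stood farthest from its group was examined by Dixon's criterion in 53 sets of values (the summed reads of the long genes and the exon and intron reads of the genes named for day 3). It was past the limit in 1, where chance gives about 1 in 20: AAEL003982, the gene with the longest introns, had 38.8 CPM of intron reads in replicate 3, against 43.9 to 44.4 CPM in the other 3.

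The blood-meal effect differed between day 3 and day 20, by the interaction test over all genes (edgeR, Benjamini-Hochberg), in the genes named for it. They were named as the largest called differences, so that they pass this test follows from the choice. In exon reads the difference was 3.17 for AAEL017300 (FDR p-value 7.59e-06), 3.07 for AAEL024454 (0.000830), 3.05 for AAEL025750 (6.75e-06), -1.91 for AAEL022465 (0.00279), -1.45 for AAEL021982 (0.00737) and -1.22 for AAEL022431 (0.00161), on the log2 scale. In intron reads it was 3.59 for AAEL024454 (0.00381), 3.49 for AAEL025750 (5.41e-07) and 3.38 for AAEL017300 (4.81e-06).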

How the results depend on the processing

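The direction of the intron rise on day 3 rests on scaling to the gene reads. The ratio of the main fit used the same size for both kinds of reads of a library. Scaling each kind on itself removes the shift common to most genes and gives the ratio relative to the typical gene. With each kind of read scaled on itself, the day 3 ratio rose in 96 genes and fell in 194, against 420 and 6 in the main fit. Under TMM of the read kind itself, 218 genes were called in intron reads on day 3 (166 higher, 52 lower), 5 on day 10, 6 on day 20, 3 for SF day 20 against day 3 and 78 for the interaction, and the ratio gave 15 calls on day 10 and 27 on day 20. Library size alone gave 92, 223 and 3 calls for intron reads on days 10 and 20 and for SF age. DESeq2 gave 113, 192 and 31, and 0 and 43 for the ratio on days 10 and 20, where 0 stands beside 2 calls of edgeR. Each day fitted alone gave 50 and 271 for intron reads and 6 and 177 for the ratio on days 10 and 20. With no low-count filter the SF age count was 6 and the day 10 ratio count 10, and with unique reads the day 10 ratio count was 4. Junction reads in place of exon reads gave 44, 60 and 33 calls on day 10, on day 20 and for SF age. With introns of at least 200000 bases (825 genes), 470 were called in exon and 814 in intron reads on day 3, with at least 500000 bases (204 genes) 109 and 204, and 169 of the genes with no other gene inside them.

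With the replicate block, 187, 319 and 78 genes were called in intron reads on days 10 and 20 and for SF age, and 40 and 217 in the ratio on days 10 and 20. Samples with the same number are not stated to share a batch; their deviations correlated at -0.03 to 0.22 in exon and -0.03 to 0.15 in intron reads, over 0.1 in 3 and 2 of 9 pairs, and 4 and 7 of 9 pairs correlated best within their own number, a hint from the data only. Since not every pair was over 0.1, the numbers were not taken to pair the samples.

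With single libraries left out, exon calls ran from 258 to 297 on day 3, 32 to 70 on day 10, 69 to 112 on day 20, 35 to 57 for SF age and 113 to 152 for the interaction. Intron calls ran from 511 to 517, 1 to 65, 1 to 135, 0 to 1 and 347 to 478 in the same order, and ratio calls from 397 to 448, 0 to 7 and 5 to 132 on days 3, 10 and 20. Of 92 results on named genes, 29 lost their call without at least 1 library. The 92 include day 3 results that were never called: exon reads of AAEL003982, AAEL000729 and AAEL008010 and intron reads of AAEL010576. Of the called exon results, 1 of 17 was lost on day 3, 5 of 10 on day 10 and 6 of 10 on day 20. Of the called intron results, 0 of 14, 4 of 5 and 5 of 5 were lost in the same order. The sign turned for AAEL003982 (-0.28), AAEL000729 (-0.029) and AAEL008010 (-0.19), and for AAEL013723 (-0.12) and AAEL000860 (-0.058), both called as rises in exon reads, in exon reads on day 3 with junction reads, and for AAEL003982 without SF day 3 replicate 4 (-0.13, with up to 0.30 without other libraries). In intron reads on day 3 it turned for AAEL019862 (-0.12), AAEL012233 (-0.18) and AAEL019551 (-0.42) under TMM of the read kind itself, and for AAEL010576 under library size alone (0.031), the replicate block (0.0047) and without BF day 3 replicate 4 (0.010, with down to -0.087 without other libraries). The causes were not tested.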
